A study of Mus musculus with 4 samples.

Results

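The RNA levels of 9 interferon-induced genes, *Irf7*, *Isg15*, *Usp18*, *Ifit1*, *Ifit3*, *Oasl2*, *Rsad2*, *Bst2* and *Ifi44*, were followed in mouse hearts with and without PIMT. These genes were listed by name as a readout of the interferon response. All 9 were found by symbol among the 23337 genes in the files, and all 9 passed the filter on low values. PIMT, the product of *Tgs1*, is a coactivator-binding protein and RNA cap methyltransferase, and its deletion in cardiomyocytes was studied for its effect on the heart.

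The hearts came from 4 groups of C57BL6/J mice. The controls were PIMTfl/fl mice of 2 and 6 months, whose PIMT gene has loxP sites on either side of exons 3 and 4. The csPIMT-/- mice of the same ages carried the same floxed alleles together with a Cre recombinase driven by the α-MyHC promoter, which acts in cardiomyocytes, so other heart cells keep the gene. RNA of 5 hearts, from males and females, was pooled in each group and gave 1 library. The labels name no Cre for the controls, so effects of Cre and of the deletion cannot be told apart, and there is no replicate library.

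Type I interferons are secreted proteins released when cells sense foreign or misplaced nucleic acid. Type I interferons bind the IFNAR receptor, whose kinases JAK1 and TYK2 phosphorylate STAT2, which joins IRF9 and binds the interferon-stimulated response element (ISRE) in the promoters of induced genes. *Irf7* encodes a factor that amplifies interferon production. ISG15 is a ubiquitin-like modifier that USP18 removes from proteins, and USP18 also blocks the receptor. The IFIT proteins bind foreign RNA, OASL2 belongs to the oligoadenylate synthetase family, viperin (*Rsad2*) makes a chain-terminating nucleotide, and tetherin (*Bst2*) holds budding virus at the cell surface. In the heart, cardiomyocytes, endothelial cells, fibroblasts and resident leukocytes can all express such genes. In a whole-tissue library, fewer cells of a type and less RNA per cell cannot be told apart.

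The libraries held between 29823073 and 40705783 reads on genes. Values are normalized counts, that is, reads divided by a size factor of each library, on a scale common to the 4 libraries. *Tgs1* gave 580 normalized counts in the control and 160 in the csPIMT-/- library at 2 months, and 816 and 162 at 6 months, so it was low in both libraries labelled csPIMT-/-. It fell by 2.09 on the log2 scale (SE 0.315, adjusted p = 0.018 in limma), and by 0.86 (adjusted p = 0.17) once a trend with GC content was subtracted. Cardiomyocyte markers were abundant in every library, with *Myh6* between 452317 and 672043 normalized counts. The 2-month control stood apart from the others. The summed level of 4 atrial markers was 2560 normalized counts in it and between 29128 and 132951 elsewhere, and that of 4 Y-linked genes was 8087 against 449 to 1176, although every pool was labelled as male and female. The 2-month csPIMT-/- library also held 1227 normalized counts of 7 lung markers, against 1.73 to 19.8 in the other libraries. Of 4 fat markers, *Ucp1* (1766 against 8.65 to 93.2), *Adipoq* (1830 against 5.19 to 453) and *Elovl3* (29.6 against 0 to 5.20) were also highest in it. *Cidea* was not, with 2561 against 1015 to 2600. Each genotype ratio at 2 months is also given with the 6-month control in place of its own, which bears on the 2-month control and not on other tissue in the csPIMT-/- library.

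ISRE letters were looked for in the promoters of the members. In RefSeq promoters (GRCm38.p6, from 250 bases before to 50 bases after the gene start), the core GAAANNGAAA was searched on both strands. It was present in 5 of the 8 members with an entry, counted by gene, against 3.44% of 32851 promoter entries. These entries cover 27025 gene symbols, and the share by gene was not counted. The matching stretches are printed 5′ to 3′ on the strand of the gene, with the matched letters in capitals. They lie upstream of the start, at chr19:34640770-34640828 (+) for *Ifit1*, chr19:34583358-34583431 (+) for *Ifit3*, chr4:156200860-156200911 (-) for *Isg15*, chr12:26456548-26456587 (-) for *Rsad2* and chr8:71537572-71537617 (-) for *Bst2*.
Ifit1: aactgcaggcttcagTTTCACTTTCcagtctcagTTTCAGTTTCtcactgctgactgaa
Ifit3: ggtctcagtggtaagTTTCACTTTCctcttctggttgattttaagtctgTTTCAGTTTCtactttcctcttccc
Isg15: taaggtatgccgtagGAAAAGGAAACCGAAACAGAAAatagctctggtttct
Rsad2: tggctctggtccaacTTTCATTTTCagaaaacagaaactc
Bst2: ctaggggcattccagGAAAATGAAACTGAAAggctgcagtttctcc
*Ifit1* and *Ifit3* each held 2 separate matches, *Isg15* held 3 and *Bst2* 2 that overlap, and *Rsad2* held 1. *Irf7*, *Oasl2* and *Ifi44* had no match in this window, and *Usp18* is named only. The core TTCNNNGAA, bound by STAT dimers, was in the window of *Bst2* alone of the 8, against 8.30% of all promoter entries. A match is a description of the letters and not a measured binding site.

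At 2 months, 6 of the 9 genes were more than 2-fold higher in the csPIMT-/- library than in its control, *Irf7*, *Usp18*, *Oasl2*, *Ifit3*, *Isg15* and *Bst2*. *Rsad2* was more than 2-fold lower, and *Ifit1* and *Ifi44* lay within 2-fold. Of 15152 genes compared, 17.3% were past 2-fold higher and 22.5% past 2-fold lower. The median ratio of the members was 2.53 and that of all genes 0.997. At 6 months only *Irf7* of the 9 was more than 2-fold higher, and *Ifit3* and *Ifi44* were more than 2-fold lower, where 16.9% and 24.9% of 15218 genes were past 2-fold higher and lower. The member median was then 0.855, with 1 for all genes. With 1 library a group these ratios have no test, and the 95% Clopper-Pearson intervals given with them cover counting error only.

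**Figure D1:**
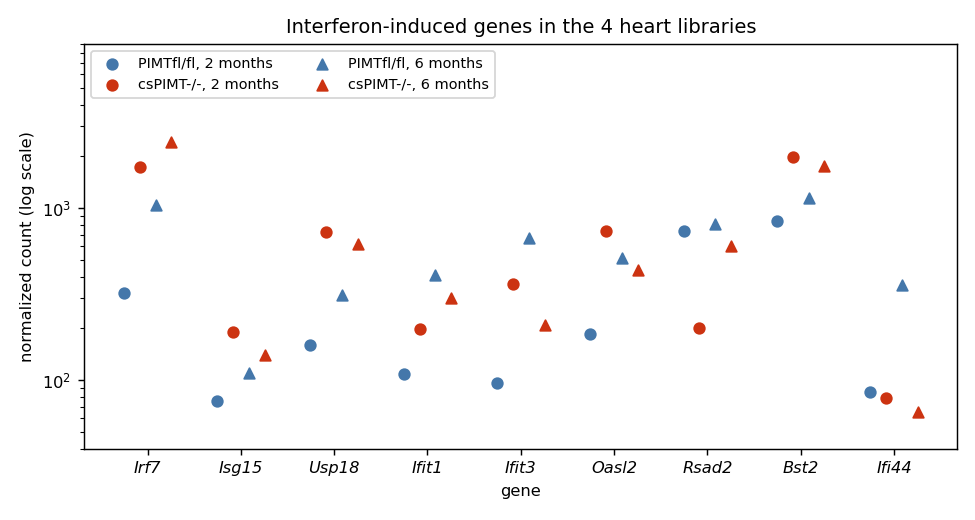
Normalized counts (log scale) of the 9 genes in each library, 1 point a library, with colour for genotype and shape for age. In 7 of the 9 genes, all but *Rsad2* and *Ifi44*, the 2-month control is the lowest point.

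*Irf7*, the regulator among them, gave 321 normalized counts in the control and 1736 in the csPIMT-/- library at 2 months, and 1048 and 2417 at 6 months. Both csPIMT-/- values lay above both controls. The ratio was 5.41 (95% interval 4.82 to 6.08) at 2 months, 1.66 when the 6-month control was used, and 2.31 (2.15 to 2.47) at 6 months. *Irf7* (chr7:141262706-141266481, minus strand, GRCm38) overlaps exons of *Phrf1* on the plus strand, and *Phrf1* had ratios of 1.10 and 1.32. The libraries were directional, but the strand setting of the counting is not given in the sources used here.

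*Usp18* (chr6:121245906-121270917, plus strand) gave 160 and 725 normalized counts in the control and csPIMT-/- libraries at 2 months, and 315 and 620 at 6 months. Here too the genotypes did not overlap. Its ratio was 4.53 (3.83 to 5.37) at 2 months, 2.30 against the 6-month control, and 1.97 (1.72 to 2.25) at 6 months. *Isg15* (chr4:156199424-156200818, minus strand), whose product USP18 removes, was the least abundant of these in reads, with 76.1 and 192 normalized counts at 2 months and 110 and 141 at 6 months. Its genotypes did not overlap either, with a ratio of 2.53 (1.93 to 3.32) at 2 months and 1.29 (1 to 1.65) at 6 months. The 2-month ratio was 1.75 with the other control. *Irf7*, *Usp18*, *Isg15* and *Bst2* had both csPIMT-/- values above both controls. How many of all genes had both csPIMT-/- values on the same side of both controls was not counted. The order is therefore not read as particular to these genes.

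*Bst2* (chr8:71534255-71537456, minus strand) gave 845 and 1974 normalized counts at 2 months and 1154 and 1748 at 6 months. The csPIMT-/- values were the higher ones at both ages, with ratios of 2.33 (2.15 to 2.53) and 1.51 (1.41 to 1.63), and 1.71 at 2 months with the 6-month control. Per kilobase of the longest transcript, *Bst2* was the highest and *Ifi44* the lowest of the 9 in every library. *Bst2* stood at 1067 to 2492 normalized counts per kilobase and *Ifi44* at 16.1 to 88.1. The levels of neighbours in this order cannot be separated by a spread between samples, since each group was 1 library. *Rsad2* changed place most, from the second highest per kilobase in the 2-month control to the second lowest in the 2-month csPIMT-/- library.

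Genotype ratios above 1 at 2 months and below 1 at 6 months were found in 3 of the 9 genes, *Ifit1*, *Ifit3* and *Oasl2*, and in 10.4% of the 14781 genes compared at both ages. *Ifit3* (chr19:34583531-34588731, plus strand) moved furthest, with 96.0 and 361 normalized counts at 2 months and 668 and 210 at 6 months. The 2 extreme values were those of the 2 controls, and the csPIMT-/- libraries lay between them. The ratio was 3.76 (3.01 to 4.72) at 2 months and 0.314 (0.268 to 0.368) at 6 months, and with the other control these became 0.540 and 2.19. Of the 50-base stretches of *Ifit3*, 51.2% also occur in its neighbour *Ifit3b*, listed as *I830012O16Rik*, so reads may be split or dropped between them. The 2 genes summed gave 141 and 478 normalized counts at 2 months and 879 and 257 at 6 months, with ratios of 3.39 and 0.292.

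*Ifit1* (chr19:34640871-34650009, plus strand), which binds RNA lacking the cap methylation of the host, gave 109 and 198 normalized counts at 2 months and 411 and 299 at 6 months. As for *Ifit3*, the controls were the lowest and the highest of the libraries. The ratios were 1.82 (1.43 to 2.32) and 0.727 (0.625 to 0.844), and with the control of the other age they became 0.483 and 2.74. *Oasl2* (chr5:114896936-114912234, plus strand) gave 185 and 736 normalized counts at 2 months and 514 and 440 at 6 months. The 2-month csPIMT-/- library was its highest and the 2-month control its lowest. Its ratios were 3.97 (3.39 to 4.67) and 0.855 (0.753 to 0.971), which became 1.43 and 2.38 with the control of the other age.

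*Rsad2* and *Ifi44* were the members with ratios below 1 at both ages. *Rsad2* (chr12:26442746-26456452, minus strand) gave 742 and 200 normalized counts at 2 months and 811 and 607 at 6 months. The controls were nearly equal, and the 2-month csPIMT-/- library was far below the other 3. The ratio was 0.269 (0.226 to 0.319) at 2 months, 0.246 with the 6-month control, and 0.748 (0.673 to 0.831) at 6 months. *Cmpk2*, its neighbour, which makes the nucleotide that viperin uses and was named after its values were seen, gave 297 and 380 normalized counts at 2 months and 634 and 231 at 6 months. *Ifi44* (chr3:151730922-151749960, minus strand) gave 85.7 and 78.9 normalized counts at 2 months and 358 and 65.5 at 6 months, so the 6-month control alone was high. Its ratio of 0.921 (0.662 to 1.27) at 2 months was within counting error of 1 but was 0.220 with the 6-month control, and that at 6 months was 0.183 (0.138 to 0.239).

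**Figure D2:**
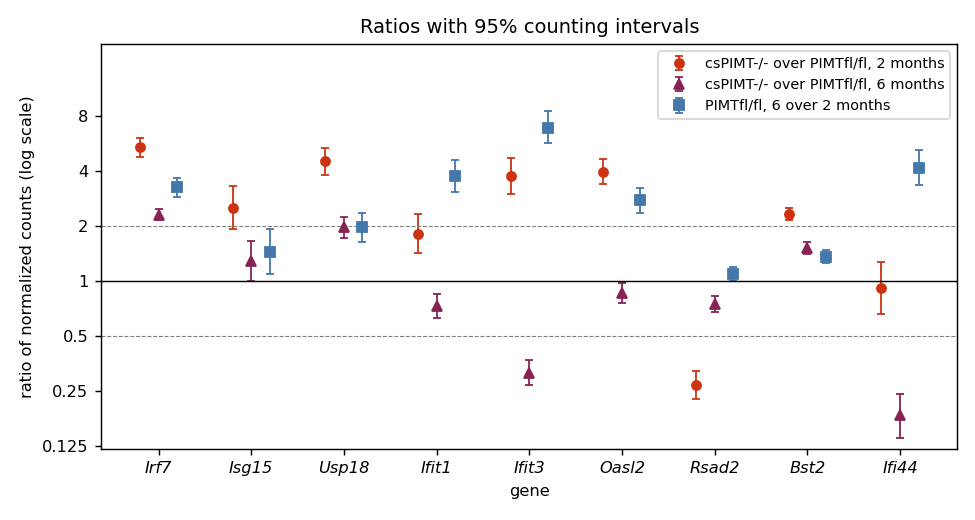
Ratios of normalized counts (log scale) of the 9 genes between genotypes at each age and between the controls of 6 and 2 months, with 95% counting intervals as bars and dashed lines at 2-fold. All 9 ratios between the controls lie above 1, up to 6.96 for *Ifit3*.

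The controls themselves differed. All 9 genes had a higher value in the 6-month than in the 2-month control, as did 57.1% of 15132 genes, and 5 of the 9 were more than 2-fold higher and none more than 2-fold lower, where 9.01% and 4.65% of all genes were. The median ratio was 2.78 for the members and 1.05 for all genes. *Ifit3* had the highest ratio, 6.96 (5.70 to 8.57), followed by *Ifi44* with 4.18 (3.35 to 5.26), *Ifit1* with 3.77 (3.09 to 4.62), *Irf7* with 3.27 (2.90 to 3.68) and *Oasl2* with 2.78 (2.37 to 3.26). *Rsad2* had the lowest, 1.09 (0.994 to 1.20). Between the csPIMT-/- libraries of 6 and 2 months, *Rsad2* alone of the 9 was past 2-fold higher, with a ratio of 3.04, and none was past 2-fold lower, with 9.71% and 8.20% of 15057 genes past 2-fold higher and lower. The genotype and age ratios share libraries, so a low value of the 2-month control enters both the 2-month genotype ratio and the ratio of the controls. Age and pool cannot be told apart in either.

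Over both ages, with genotype and age in the model, limma called *Irf7* and *Usp18* higher in csPIMT-/- hearts at an adjusted p below 0.05, and called no member lower. *Irf7* rose by 1.82 on the log2 scale (SE 0.355, adjusted p = 0.026) and *Usp18* by 1.57 (SE 0.391, adjusted p = 0.041). Of 14847 genes, 11.0% were called higher and 17.5% lower. *Bst2* (0.91, SE 0.258, adjusted p = 0.055), *Isg15* (0.84, SE 0.445, adjusted p = 0.20) and *Oasl2* (0.88, SE 0.567, adjusted p = 0.28) did not pass, nor did *Ifit1* (0.20, SE 0.441, adjusted p = 0.75) and *Ifit3* (0.12, SE 0.856, adjusted p = 0.93). *Rsad2* (-1.15, SE 0.422, adjusted p = 0.097) and *Ifi44* (-1.27, SE 0.653, adjusted p = 0.19) had negative differences. At an unadjusted p below 0.05, 3 members were higher and 1 lower, against 20.7% and 24.7% of all genes. edgeR gave 2 higher and 0 lower, and DESeq2 gave 3 higher and 1 lower, adding *Bst2* and *Rsad2*. The error had 1 residual degree of freedom, with a further 4 borrowed across genes. With 1 library left out, 1 genotype has a lone library, so whether the calls rest on 1 library cannot be told. Only the differences are given for these fits. For *Irf7* they ranged from 0.97 without the 2-month control to 2.67 without the 6-month control. For *Usp18* they ranged from 1.09 to 2.06 with the same libraries left out. With genotype alone in the model *Irf7* did not pass (adjusted p = 0.051), *Usp18* did and *Bst2* passed as well (adjusted p = 0.039). That fit called 12.8% of all genes higher and 18.2% lower. When the trend with GC content was subtracted, the difference was 1.22 for *Irf7* and 1.42 for *Usp18*, and none of the 13474 genes in that fit was called.

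Transcript GC content moved with the ratios. Over all genes the log2 ratio and the GC content of the longest transcript had a Spearman rho of 0.58 at 2 months (13752 genes) and 0.61 at 6 months (13792 genes), and for the 9 members rho was 0.68 and 0.90. These are descriptions across genes measured in the same libraries. The 4 members with a GC content above the median of expressed genes (49.9%), *Irf7* (55.4%), *Bst2* (55.3%), *Isg15* (52.8%) and *Usp18* (50.9%), had ratios above 1 at both ages. *Oasl2* (49.4%), *Ifit3* (47.5%), *Rsad2* (44.3%), *Ifit1* (43.3%) and *Ifi44* (40.4%) were below it. None of these 5 had a ratio above 1 at 6 months, but 3 did at 2 months. The same split in 50 other interferon-induced genes gave ratios above 1 at 6 months in 23 of 25 genes above the median and 2 of 25 below it. At 2 months these were 24 of 25 and 9 of 25. Such a split was not counted over all genes.

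**Figure D3:**
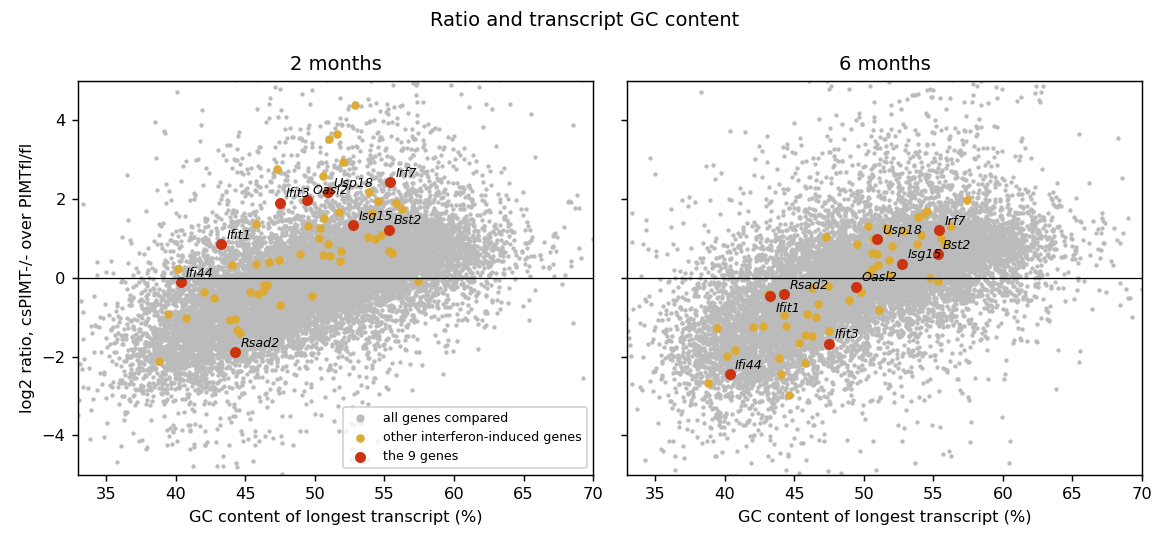
log2 ratio of csPIMT-/- over PIMTfl/fl at 2 months (left) and 6 months (right) against transcript GC content in percent, for all genes compared (grey), the other interferon-induced genes (yellow) and the 9 genes (red, named), with a few genes beyond the axes not shown. Ratios climb with GC content in the grey cloud and among the 9 genes, with a rho of 0.68 at 2 months and 0.90 at 6 months in the latter.

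After a lowess trend with GC content was subtracted, ratios at 2 months were 3.58 for *Irf7*, 4.14 for *Usp18*, 1.97 for *Isg15*, 1.55 for *Bst2*, 3.46 for *Ifit1*, 4.73 for *Ifit3* and 4.19 for *Oasl2*. *Ifi44* moved from 0.921 to 2.31, and *Rsad2* stayed lowest at 0.465. The number past 2-fold was again 6 higher and 1 lower, but the 6 included *Ifit1* and *Ifi44* in place of *Isg15* and *Bst2*, and 2061 and 1572 of 13752 genes were then past 2-fold higher and lower. At 6 months the adjusted ratios were 1.51 for *Irf7*, 1.70 for *Usp18*, 1.58 for *Ifit1*, 1.45 for *Rsad2*, 0.993 for *Bst2*, 0.949 for *Isg15*, 0.871 for *Oasl2*, 0.514 for *Ifi44* and 0.400 for *Ifit3*. No member was then more than 2-fold higher, and *Ifit3* alone was more than 2-fold lower, where 14.2% and 13.1% of all genes were. Of all genes past 2-fold, the share that was higher moved from 43.4% to 56.7% at 2 months and from 40.5% to 52.1% at 6 months with this adjustment.

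Upstream of the members, interferon transcripts themselves were not detectable at this depth. Of 19 interferon ligand genes in the files no library had more than 1 read for any, *Ifnb1* had 1 read in the 2-month control alone, and *Ifng* had none. Receptors and JAK-STAT components included 13 tested genes, of which limma called 0 higher and 1 lower, against 11.0% and 17.5% of all genes. That gene was *Jak2*, a kinase of the interferon-gamma receptor, which fell by 1.92 (SE 0.230, adjusted p = 0.016). *Ifnar1* had ratios of 0.676 and 0.976, *Ifnar2* of 1.53 and 1.22, *Stat2* of 1.60 and 1.06, and *Irf9* of 2.39 and 1.10, at 2 and 6 months. None of these 4 passed the test (adjusted p between 0.17 and 0.36). The kinases of the type I receptor did not pass either, with ratios of 1.75 and 1.30 for *Tyk2* and 0.725 and 0.679 for *Jak1* (adjusted p = 0.11 for each).

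Among 11 negative regulators 1 was called higher and 1 lower, no larger a share than the 11.0% and 17.5% of all genes. *Socs3*, an inhibitor of JAK kinases, rose by 1.11 (SE 0.257, adjusted p = 0.036) and the phosphatase gene *Ptpn2* fell by 2.36 (SE 0.268, adjusted p = 0.016). *Socs1* went from 29.4 to 138 normalized counts at 2 months and from 36.9 to 52.0 at 6 months without passing (adjusted p = 0.16), and the ubiquitin ligase gene *Trim21* had ratios of 1.16 and 0.312 (adjusted p = 0.32). Of 30 sensors, adaptors and kinases 5 were called higher and 5 lower, near the shares of all genes (11.0% and 17.5%). *Dhx58*, a regulator of RNA sensing, rose by 1.86 (SE 0.366, adjusted p = 0.027). *Eif2ak2*, the kinase PKR, fell by 1.54 (SE 0.338, adjusted p = 0.032), as did the DNA sensor *Aim2* by 1.66 (SE 0.449, adjusted p = 0.049). *Zbp1*, a sensor of Z-form nucleic acid, gave 16.4 and 192 normalized counts at 2 months and 93.2 and 118 at 6 months (adjusted p = 0.14). The factor *Irf3* had ratios of 1.47 and 1.36 (adjusted p = 0.13).

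Of 51 other interferon-induced genes tested, 11 were called higher and 5 lower, where 11.0% and 17.5% of all genes were. Their median ratio was 1.51 at 2 months, 0.953 at 6 months and 1.52 between the controls. *Ifi27l2a*, a mitochondrial interferon-induced protein, gave 317 and 6695 normalized counts at 2 months and 2306 and 5259 at 6 months, and rose by 2.79 (SE 0.745, adjusted p = 0.048). *Samd9l*, a growth-restraining antiviral gene, gave 825 and 191 and then 2286 and 358, and fell by 2.39 (SE 0.285, adjusted p = 0.016). *Nmi*, a partner of STAT proteins, fell by 2.19 (SE 0.491, adjusted p = 0.034). *Oas1g*, an oligoadenylate synthetase, had ratios of 13.0 and 2.40 without passing (adjusted p = 0.059).

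Interferon-gamma and GTPase genes were mostly not called, with 0 of 19 higher and 1 lower (*Gbp7*), against 11.0% and 17.5% of all genes. Their median ratio was 1.42 at 2 months, 0.332 at 6 months and 3.15 between the controls. *Iigp1*, an immunity-related GTPase, gave 369 and 328 normalized counts at 2 months and 5546 and 241 at 6 months, and the chemokine *Cxcl9* gave 22.5 and 18.5 and then 170 and 9.36. In both genes the 6-month control alone was high, as in *Ifi44*. The highest fitted differences of the list belonged to *Ciita*, the activator of class II genes, with 29.4 and 253 normalized counts and then 132 and 203 (adjusted p = 0.097), and to the myeloid factor *Irf8*, with 666 and 994 and then 541 and 1315 (adjusted p = 0.065). Class I antigen presentation had the largest share of calls among these lists, 9 of 16 higher and 0 lower, where 11.0% and 17.5% of all genes were called. *H2-K1* rose by 1.74 (SE 0.309, adjusted p = 0.022) and *H2-Q6* by 3.08 (SE 0.501, adjusted p = 0.020), and these class I genes share sequence with each other. The lowest of the list were the peptide-trimming enzyme gene *Erap1*, with ratios of 0.679 and 0.290 (adjusted p = 0.059), and the proteasome activator gene *Psme1*, with 1.60 and 1 (adjusted p = 0.33). The median GC content of this list was 54.4%, above that of the members (49.4%) and of all genes (48.6%). Of 15 NF-κB targets 3 were called higher and 0 lower, against 11.0% and 17.5% of all genes. *Icam1* was among the 3 (1.63, SE 0.223, adjusted p = 0.017), and the chemokine genes *Ccl2* (adjusted p = 0.38) and *Cxcl2* (adjusted p = 0.37) did not pass. After the GC trend was subtracted, none of the 13474 genes in that fit was called, so no list could keep a call. The differences were then -1.04 for *Jak2*, 0.38 for *Socs3*, -0.89 for *Ptpn2*, 1.37 for *Dhx58*, -0.60 for *Eif2ak2*, -0.55 for *Aim2*, 2.39 for *Ifi27l2a*, -0.83 for *Samd9l*, -1.37 for *Nmi*, 1.22 for *H2-K1*, 2.52 for *H2-Q6* and 1.03 for *Icam1*. Some genes stand in more than 1 list.

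**Figure D4:**
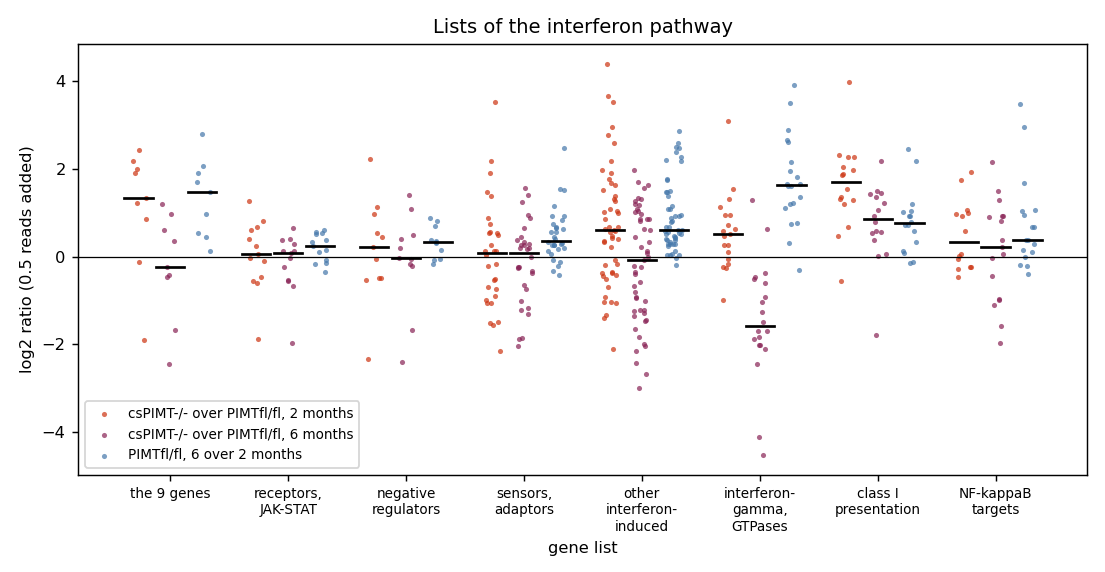
log2 ratios (0.5 reads added) of the genes in each list for the genotype at 2 and at 6 months and for the controls of 6 over 2 months, with 1 point a gene and black bars at the medians. The interferon-gamma and GTPase genes have the lowest median at 6 months, a ratio of 0.332, and the highest between the controls, 3.15.

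Leukocyte markers differed between the libraries too. The members summed to 2621 normalized counts in the 2-month control, 5389 in the 6-month control, 6202 in the 2-month and 6547 in the 6-month csPIMT-/- library. For 15 leukocyte markers the sums were 7733, 19766, 23027 and 30303 in the same order. Of 12 tested, limma called 5 higher and 0 lower, against 11.0% and 17.5% of all genes. Macrophage markers were far from 0, with *Csf1r* between 3363 and 10845 and *Lyz2* between 2195 and 13849 normalized counts. *Csf1r* and *Lyz2* made up most of the leukocyte sums. *Cd68* and *Cd52* shared their order of libraries, and several other markers did not. *Emr1* was highest in the 6-month control (2660 normalized counts), and *S100a8* lay between 17.3 and 33.7 in 3 libraries and at 206 in the 6-month csPIMT-/- library. The pan-leukocyte gene *Ptprc* went the other way between genotypes, with 412 and 219 normalized counts at 2 months and 948 and 420 at 6 months. The 5 endothelial markers summed to 46288 to 69983 and 5 fibroblast markers to 66322 to 118900 normalized counts. *Irf7* (1736 and 2417) and *Bst2* (1974 and 1748) were the largest parts of the member sums in the csPIMT-/- libraries of 2 and 6 months. *Irf7* alone of the members had the same order of libraries as those sums. The part of leukocytes or of other tissue in the member values was not tested.

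Centred on each gene's mean over the 4 libraries, the mean log2 profile of the 9 members was -0.88 in the 2-month control, 0.22 in the 2-month csPIMT-/- library, 0.45 in the 6-month control and 0.22 in the 6-month csPIMT-/- library. Single members departed from it by a root mean square of 0.312 (*Ifit1*) to 1.06 (*Rsad2*). Of 12997 genes with a mean of at least 50 normalized counts, the 5 closest to this profile were *Parp3*, *Ikzf1*, *Adam33*, *Ocln* and *Ptafr*, with distances from 0.0248 to 0.0861. *Parp3*, an ADP-ribosyltransferase, gave 761 and 1576 normalized counts at 2 months and 1928 and 1591 at 6 months. *Ikzf1*, a lymphoid transcription factor, gave 88.3 and 184 and then 228 and 199. These likenesses rest on 4 libraries.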

How the data were processed

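The authors made single-end libraries from oligo-dT selected RNA, trimmed the reads, filtered ribosomal reads, aligned the remainder with STAR (mm10), obtained counts per gene from htseq-count (HTSeq 0.6.1p1 per the submitters' processing notes) on a UCSC annotation, and scaled them with DESeq2. The deposited signal is 1 normalized count per gene and library. One column is headed as read counts but is scaled like the others. Division by the smallest value of a library gave whole reads (100% of values, largest deviation 4.9e-09 reads), 29823073 to 40705783 a library. Intervals cover counting error only.

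Ratios needed 10 reads in 1 library. The fit over both ages used limma 3.58.1 (R 4.3.3) on log2(normalized count + 1), with genotype, age and a mean trend, genes with at least 10 in 2 libraries, and Benjamini-Hochberg adjustment over 14847 genes. The fold changes understate those of low genes. Alternatives used edgeR 4.0.16 and DESeq2 1.42.0 on the recovered reads, TMM, other pseudocounts and filters, other controls, and a lowess GC trend (span 0.3, longest GENCODE M21 transcript). Scripts were tested on simulated data. The members and lists were chosen with earlier results of these data known. Named were all members, *Tgs1*, the 2 highest and 2 lowest fitted differences of each list, a few fixed pathway genes (1 is not reported here) and the 5 genes of closest profile. *Phrf1*, *Cmpk2*, *Ifit3b* and *Gbp7* were added after their values were seen. With 1 pool a group, the p-values do not measure a spread between replicate pools. In the main fit they rest on the departure from additive effects of genotype and age and on variance borrowed across genes. A genotype effect that differs between the ages counts as error there.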

Additional observations from a re-analysis of the deposited data

Results flagged for a closer look

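The genotype ratio lay on opposite sides of 1 at 2 and at 6 months, with a counting interval that left out 1 both times, for 3 of the 9 genes and 3 related ones. With 1 library per group and age, the difference between ages leaves no residual degree of freedom and was not tested. The ratio at 6 months divided by that at 2 months was 0.399 for *Ifit1*, 0.0836 for *Ifit3* and 0.215 for *Oasl2*. It was 0.285 for *Cmpk2* and 0.0856 for *I830012O16Rik* (*Ifit3b*). *Nfkb1* went the other way, with 1.60.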

How the results depend on the processing

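The 2 members called higher by limma over both ages became 0 when the GC trend was subtracted and 0 without a mean trend of the variance (3 members at an unadjusted p below 0.05 in each, as were 1831 of 13474 and 2517 of 14847 genes). Leaving out 1 library leaves a lone library in 1 genotype, which is then assumed to vary like the others. Calls are therefore not given for those fits. The 0 called lower became 1 (*Rsad2*) with DESeq2, where 20.1% of all genes were called lower. With 1 library left out, the difference of *Rsad2* ranged from -1.95 to -0.35. Over all 14847 genes no call was left without a mean trend, and none of 13474 after the GC trend. Of the members, 6 were past 2-fold higher at 2 months and 1 lower. With the control of the other age 1 was higher and 3 lower, where 14.8% and 25.1% of all genes were. With the mean of both controls 4 were higher and 2 lower, where 14.5% and 24.2% of all genes were. At 6 months 1 was higher and 2 lower. These became 0 and 1 with the GC trend, where 1960 and 1800 of 13792 genes were past 2-fold higher and lower. With the other control they became 6 and 0, where 2886 and 3262 of 15209 genes were. With the mean of both controls they became 2 and 1, where 2535 and 3713 of 15441 genes were. The fitted log2 difference of *Ifi44* turned to 0.13 with the GC trend. With 1 library left out, *Ifit1* ranged from -0.75 to 1.15 and *Ifit3* from -1.28 to 1.51. The ratio of *Ifit3* at 2 months was 0.540 with the other control and 0.945 with the mean, and at 6 months 2.19 with the other control. Beyond the alternatives' own construction, the cause of these changes was not tested. Size factors of the 2 libraries, TMM and other filters or pseudocounts kept every count within 1.5 times its main value. Age in the model sets the libraries of the same age against each other. With genotype alone the count called higher stayed at 2, with *Bst2* in place of *Irf7*, where 12.8% of all genes were called higher. No paired analysis by replicate number was possible because the labels give none. The members held 63 to 2323 reads a library.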
